A study of Xenopus laevis with 14 samples.

Results

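The regions described here are the ChIP-seq peaks of FLAG-tagged Prdm12 that were called in both kinds of Xenopus laevis animal cap of the study. They were chosen by position alone, as the peaks of the list from neuralized caps that overlapped, by at least 1 bp on the same scaffold, a peak of the list from ectodermal caps. Of 39464 peaks in the neuralized list, 7497 met this rule (19.0%), and 31967 did not. They paired with 7497 of 35261 peaks of the ectodermal list (21.3%), and 27764 peaks of that list had no partner. Both shares state the rule that chose the regions and support nothing by themselves.

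Prdm12 is a PR domain zinc-finger transcription factor. In the hindbrain and spinal cord it marks the p1 progenitor domain, whose cells become inhibitory V1 interneurons, and in mice and humans it is needed for nociceptors, the pain-sensing neurons. It is known mainly as a repressor, and in mouse cells it works with the histone methyltransferase G9a. An animal cap is the presumptive ectoderm at the top of the blastula and early gastrula. Left alone it forms epidermis, noggin turns it neural by blocking BMP signalling, and retinoic acid gives that neural tissue a posterior character. FLAG is a short peptide tag, which an anti-FLAG antibody brings down with the DNA that the tagged protein is crosslinked to.

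RNA-seq and ChIP-seq made up the study's 14 samples, and the peaks came from 2 ChIP libraries and 2 input libraries. Ectodermal caps came from embryos injected with prdm12-FLAG RNA alone. Neuralized caps came from embryos injected with prdm12-FLAG and noggin RNA, and these caps were treated with retinoic acid. In both groups embryos were injected at the 2-cell stage, caps were cut at about stage 10, and material was fixed in 1% formaldehyde for 30 minutes. Both groups carried the injected tagged protein, so any binding that the peaks record is of injected and not endogenous Prdm12. There was 1 ChIP library for each condition and thus no replicate spread, and no test of a difference between conditions is given. A FLAG pull-down from caps without the tagged protein was not used here, so DNA bound by Prdm12 cannot be told apart from DNA pulled down without it. The header lines of both lists name their tag directories after prdm1, while the sample labels name prdm12.

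The ChIP libraries were close in total tags (mapped reads), with 11781620 in ectodermal caps and 12088205 in neuralized caps, per the file headers. They differed in the tags per bp that the headers give, at 0.001627 and 0.002708, and in the tags expected per peak, at 0.27 and 0.433, with at most 1 tag considered per position. The part of this difference in the results below was not tested. Both lists were called against the same pooled inputs, so they share their control. The headers estimate that 13.23% of tags were in peaks in ectodermal caps and 9.68% in neuralized caps. The lowest tag count that could make a candidate peak was 6 in ectodermal caps and 7 in neuralized caps. Comparison with input removed 21.1% of candidate peaks in ectodermal caps and 29.2% in neuralized caps, and 3.57% and 0.902% were removed because their tags piled on too few positions.

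Partner peaks were most often close together at their centres, within the limit that the overlap rule sets. A peak in these lists is a window of fixed length set on the highest pile of tags, and it was 161 bp long for 98.9% of neuralized peaks and 167 bp long for 98.3% of ectodermal peaks. Among the 7497 shared peaks, the centres of the partners were a median of 43 bp apart, with quartiles of 19 and 78 bp. The centres were within 10 bp of each other for 1033 pairs (13.8%), and 61 pairs had exactly the same centre. They were more than 100 bp apart in 1119 pairs (14.9%), and the widest distance was 163 bp. Neuralized peaks lay to neither side of their partners, with 3658 displaced towards higher coordinates and 3778 towards lower ones. Pairing was 1 to 1 in all but 1 peak of each list, which touched 2 peaks of the other list.

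The distances between centres fell off without a step at the overlap limit. In bins of 25 bp, 2324 neuralized peaks lay less than 25 bp from the nearest ectodermal centre and 1855 lay 25 to 50 bp away. The bins from 75 and from 150 bp held 859 and 272 peaks. Farther out, beyond what the rule takes in, the counts went on falling more slowly, from 191 peaks in the bin from 175 bp to 76 in the bin from 475 bp and 43 in the bin from 975 bp. The peaks of the ectodermal list covered 0.293% of the genome size that the headers give (2000000000 bp, a setting of the peak caller), and those of the neuralized list 0.317%.

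**Figure D1:**
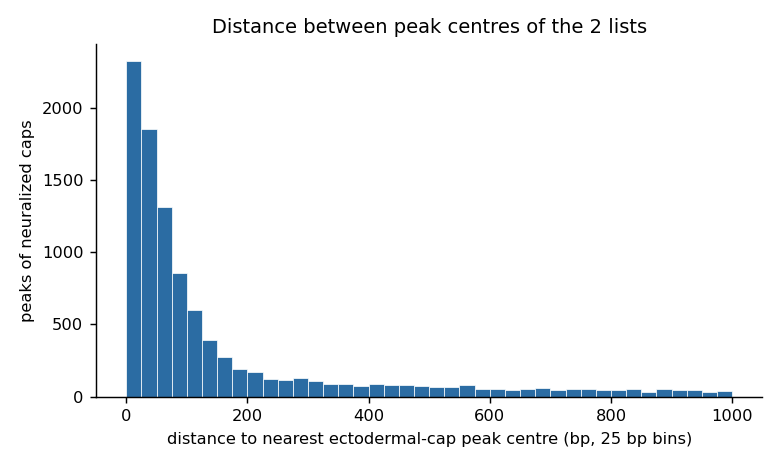
Number of neuralized-cap peaks (y axis) by the distance in bp from their centre to the nearest ectodermal-cap peak centre (x axis, bins of 25 bp up to 1000 bp). Counts fall from 2324 in the first bin to 43 in the last.

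At the limit itself, 10 shared peaks overlapped their partner by 1 bp. These include Scaffold203235, where the ectodermal peak was itself 1 bp long (80-80) and lay inside the neuralized peak at 52-120. In addition, 5 unshared peaks lay directly beside an ectodermal peak with no base between them and none in common. On scaffold Scaffold106356 the neuralized peak at 1461712-1461872 and the ectodermal peak at 1461546-1461712 met by 1 bp. A pair on Scaffold1187, at 1356779-1356939 and 1356612-1356778, touched without overlapping and was counted as unshared. Positions are 1-based, in a genome build that is not given in the sources used here. Of the 31967 unshared neuralized peaks, 2840 (8.88%) had an ectodermal peak less than 1000 bp away and 11233 (35.1%) had one less than 10000 bp away. Another 999 had no ectodermal peak on their scaffold.

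Shared peaks stood early in both lists. The deposited lists hold no peak heights, since the score is 1 in every line, and the only ranking left is the order of the lines. That order was not by coordinate, and within scaffolds 80.6% of pairs of neuralized peaks and 77.8% of pairs of ectodermal peaks stood in the order of the running number in their names. HOMER writes peaks from high to low tag count by default, but the sources used here do not say that these lines were left in that order. In the neuralized list the median shared peak stood at 29.2% of the list, with quartiles of 12.3% and 54.9%. Unshared peaks of that list had a median position of 54.7%, with quartiles of 29.96% and 78.0%. In the ectodermal list the medians were 36.4% for shared and 53.6% for unshared peaks. The first 50% of lines held 71.1% of the shared peaks in the neuralized list and 63.7% in the ectodermal list.

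The shared fraction fell at every step from the first decile of each list (its first 10% of lines) to the last. In the neuralized list it was 39.9% in the first decile (1575 of 3946 peaks, 95% Wilson interval 38.4% to 41.5%). It was 17.3% in decile 5 and 6.94% in the last (274 of 3947, 6.19% to 7.78%). In the ectodermal list the first decile had 36.2% shared (1277 of 3526, 34.6% to 37.8%), decile 5 had 21.4% and the last 11.3% (398 of 3527, 10.3% to 12.4%). Among the first 100 lines, 63 neuralized and 61 ectodermal peaks were shared, against 2 and 8 of the last 100. These intervals cover counting error only, and neighbouring peaks are not independent of each other.

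**Figure D2:**
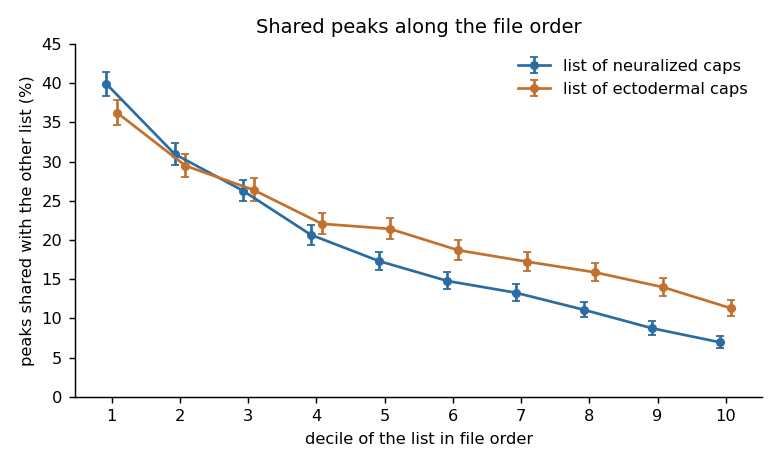
Percentage of peaks shared with the other list (y axis) in each decile of a list in file order (x axis, first lines at left) for the neuralized and the ectodermal list. Points are shares and bars their 95% Wilson intervals, and the shares fall from 39.9% to 6.94% and from 36.2% to 11.3%.

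Pairs that stood early in the neuralized list were also closer together. Their centres were a median of 35 bp apart in its first decile (1575 pairs, quartiles 15 and 64 bp), 48 bp in decile 5 (683 pairs) and 54.5 bp in the last (274 pairs, quartiles 26.3 and 93.8 bp). Centres within 10 bp made up 17.2% of pairs in the first decile and 10.2% in the last. The rise in distance between these deciles was not even, with a median of 45 bp in decile 7 and 53.5 bp in decile 8.

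The 10 shared peaks nearest the top of the neuralized list were lines 1 to 18 of it. Of their partners, 9 were among the first 100 lines of the ectodermal list. This closeness in rank did not extend to the other shared peaks among the first 100 neuralized lines. Most of those had partners later than line 100 of the ectodermal list, and some had partners beyond line 1000. The first line of both lists was the same place, Scaffold190753 at 314-474 in neuralized and 311-477 in ectodermal caps, with identical centres. On Scaffold337825 the peak at 4933784-4933944 was line 4 in neuralized caps and its partner, 1 bp away by centre, was line 16 in ectodermal caps. Scaffold939 held a peak at 848828-848988 that was line 14, and its partner at 848857-849023 was line 5. The peak at 3009566-3009726 of Scaffold13787 was line 15, and its partner, 47 bp away by centre, was line 4. Scaffold37414 held a peak at 233209-233369 that was line 9, with a partner 8 bp away at line 33.

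A single one of these 10 was far apart in rank. It was the peak at 2744699-2744859 of Scaffold265107, line 11 in neuralized caps, whose partner 11 bp away was line 17955 in ectodermal caps, or 50.9% of the way down. The other 4 of the 10 are Scaffold182333 at 2228-2388 (lines 8 and 53), Scaffold124599 at 24-123 (lines 7 and 34), Scaffold173667 at 45-205 (lines 10 and 43) and Scaffold53930 at 2-116 (lines 18 and 99). In all 4 the peak was the sole one on its scaffold in either list.

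Some of the leading peaks lay on very short pieces of assembly. Scaffold lengths were not given, so the highest peak end on a scaffold stands in for its length as a lower bound. Of the 10 leading shared peaks, 4 were on scaffolds where no peak of either list ended at or beyond 1000 bp. Such scaffolds held 12 of the first 100 lines of the neuralized list, 9 of them shared, and 13 of the first 100 of the ectodermal list, 7 of them shared. Over the whole lists they held 2.14% of neuralized and 2.55% of ectodermal peaks. Their shared fraction over the whole lists was 18.8% in neuralized caps (159 of 845, 16.3% to 21.6%) and 17.7% in ectodermal caps. Repeats and copy number of those scaffolds were not tested. Without scaffolds whose peaks end below 10 kb, an alternative added after seeing the data, the shared fractions were 18.985% and 21.3%.

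Shared peaks were farther from their neighbours than unshared ones in the neuralized list. Their median distance to the nearest other peak of the neuralized list was 8815 bp (quartiles 2560 and 30635 bp, 95% interval of the median 8333 to 9304), against 7895 bp for unshared peaks (2557 and 26892 bp, 7674 to 8124). In the ectodermal list the medians were 9087 bp (8492 to 9602) and 8908 bp (8632 to 9139), with intervals that overlap. The intervals given here and within quintiles below cover counting error only, and neighbouring peaks are not independent of each other. A neighbour within 10 kb was present for 51.1% of shared neuralized peaks (3828 of 7497, 49.9% to 52.2%) and 53.1% of unshared ones (52.6% to 53.7%). At short range the order was the other way, with a neighbour within 1 kb for 10.9% of shared (10.2% to 11.6%) and 9.99% of unshared neuralized peaks (9.67% to 10.3%), whose intervals overlap. The corresponding ectodermal values were 50.2% and 50.7% within 10 kb, and 10.96% (10.277% to 11.7%) and 9.92% (9.57% to 10.273%) within 1 kb. These ectodermal intervals within 1 kb barely miss each other.

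File order moved with spacing, so shared and unshared peaks were also compared within quintiles (successive 20% of lines) of each list. In the first quintile of the neuralized list, 54.6% of shared peaks (52.7% to 56.4%) and 60.0% of unshared peaks (58.6% to 61.3%) had a neighbour within 10 kb. Median distances to the nearest peak in that quintile were 7380 bp for shared and 5967 bp for unshared peaks. The share with a neighbour was lower for shared peaks in each of the 5 quintiles, down to 44.4% (40.6% to 48.4%) against 46.1% (44.98% to 47.3%) in the last, where the intervals overlap. In the first quintile of the ectodermal list the medians were 7346 and 6754 bp and the shares within 10 kb were 53.9% and 56.7%, and in its last quintile they were 45.6% and 45.2%. Within 1 kb shared peaks had the higher share in most quintiles of both lists. The exceptions were quintile 4 of the neuralized list and the first quintile of the ectodermal list. Intervals of shared and unshared peaks overlap in every quintile. In neuralized caps the shares of shared and unshared peaks were 11.3% and 11.1% in the first quintile and 8.63% and 9.93% in quintile 4. In ectodermal caps they were 10.8% and 11.4% in the first quintile and 12.2% and 10.6% in quintile 2. A few peaks lay closer together than the minimum distance in the headers (320 bp and 332 bp), at like shares in both classes. They were 15 shared (0.200%) and 55 unshared (0.172%) neuralized peaks, and 20 shared (0.267%) and 66 unshared (0.238%) ectodermal peaks.

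Shared peaks lay next to each other more often than unshared peaks lay next to them. The nearest other peak of the neuralized list was itself shared for 26.0% of shared peaks (1890 of 7268, 25.01% to 27.0%) and for 17.2% of unshared peaks (5336 of 31020, 16.8% to 17.6%). In the ectodermal list the shares were 26.2% (25.2% to 27.3%) and 19.9% (19.4% to 20.4%). Where the nearest peak was within 1 kb they were 30.8% (251 of 815, 27.7% to 34.1%) and 17.6% (563 of 3194, 16.3% to 19.0%) in the neuralized list. The gap was present in every quintile of the file order of the neuralized list, from 27.0% against 19.0% in the first to 25.5% against 15.2% in the last. In the ectodermal list it was smallest in the last quintile, where 21.99% (19.3% to 24.9%) stood against 19.7% (18.7% to 20.7%) and the intervals overlap. Because 2 neighbours can each be the nearest of the other, these counts hold some pairs 2 times.

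**Figure D3:**
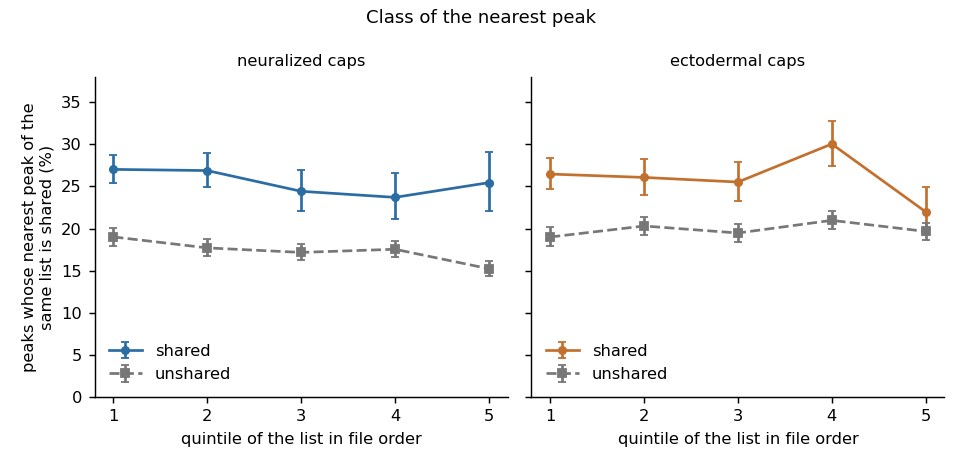
Percentage of peaks whose nearest peak of the same list is shared (y axis), for shared and unshared peaks in each quintile of the list in file order (x axis), with neuralized caps at left and ectodermal caps at right. Bars are 95% Wilson intervals, and in the neuralized list shared peaks are higher in all quintiles, by 27.0% to 19.0% in the first.

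Most shared peaks had no shared peak within 10 kb. Chained at gaps of at most 10 kb between centres, the 7497 shared peaks of the neuralized list formed 6654 groups, of which 5965 held 1 peak. The other 689 groups held 1532 peaks (20.4% of shared peaks). There were 577 groups of 2, 89 of 3 and 13 of 4, and the remaining 10 groups held 5 to 8 peaks. Chains of all 39464 peaks of the neuralized list, made the same way, reached 29 peaks. A larger number of peaks by itself makes longer chains, so these lengths are not comparable with those of the shared groups. Among the chains of all peaks, 56 held 10 or more. In them 13.3% were shared (88 of 660, 10.95% to 16.1%), against 19.7% of peaks with no neighbour in that distance (3669 of 18649, 19.1% to 20.3%). The ectodermal list had 14.5% in 28 such chains (49 of 337, 11.2% to 18.7%) and 21.4% (20.8% to 22.0%). Peaks of a chain are not independent, so the intervals for these chains are too narrow.

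The largest group of shared peaks spanned 28.4 kb of Scaffold53263, at 7186486-7214843. It held 8 neuralized and 8 ectodermal peaks, and all of them were shared. Partners in this group were 5 to 105 bp apart by centre. The peak at 7192362-7192522 was line 117 in neuralized and its partner line 1019 in ectodermal caps, and the peak at 7202916-7203076 was line 140 and its partner line 284. Another 3 of the 8 also stood early in neuralized caps, namely 7188416-7188576 (lines 646 and 575), 7196030-7196190 (lines 1241 and 6704) and 7205751-7205911 (lines 1294 and 1240). The other 3 stood later in both lists. They were 7186486-7186646 (lines 15608 and 15517, or 39.6% and 44.0% of the way down), 7212485-7212645 (lines 24158 and 20478) and 7214683-7214843 (lines 33414 and 33676). Early and late lines of both lists were thus present within 1 group.

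**Figure D4:**
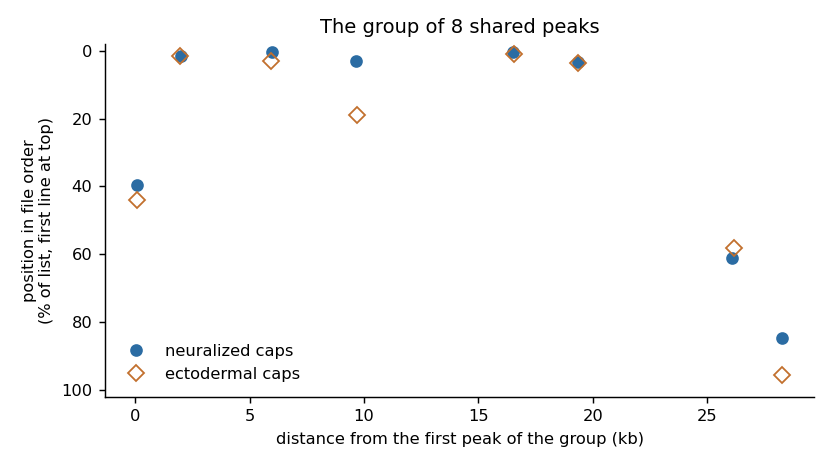
Position in file order, as a percentage of the list with the first line at the top (y axis), of the 8 shared peaks of the largest group against their distance in kb from its first base (x axis). Filled circles are neuralized caps and open diamonds ectodermal caps, and 5 of the 8 peaks stand in the first 5% of the neuralized list.

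The next largest group, on Scaffold47457 at 2058628-2095057, held 7 shared peaks among 11 neuralized and 9 ectodermal peaks in 36.4 kb. Its members ranged from line 123 to line 21294 in neuralized caps and from line 201 to line 21226 in ectodermal caps. A further 4 groups held 6 shared peaks each. They lay on Scaffold69443 at 9176197-9192860, Scaffold3267 at 725506-746683, Scaffold74488 at 1710246-1733558 and Scaffold289484 at 123440-151010. The group on Scaffold69443 held line 40 of the neuralized and line 100 of the ectodermal list. Genes at these places were not assigned, since no annotation of the build was used here.

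Shared peaks were spread over many scaffolds of the assembly. They lay on 1286 scaffolds, of 2455 with a neuralized peak and 2521 with an ectodermal peak. Only the 1554 scaffolds with peaks of both lists could hold a shared peak. On the 561 scaffolds where peaks reached 1 Mb or more and each list had at least 10 peaks, there was a median of 2.76 shared peaks per Mb (quartiles 1.96 and 3.99). The neuralized list had a median of 14.9 peaks per Mb there and the ectodermal list 13.2. The shared fraction of neuralized peaks had a median of 18.75% per scaffold, with quartiles of 14.3% and 24.0%. Neuralized peaks outnumbered ectodermal ones on 347 of these scaffolds and were outnumbered on 197. The neuralized list was also the longer one as a whole, with 39464 against 35261 peaks.

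The 5 scaffolds with most shared peaks held 279 of them, 3.72% of all shared peaks and 3.50% of all neuralized peaks. Scaffold39723 had the most, with 69 shared of 288 neuralized peaks (23.96%, 19.4% to 29.2%) and of 267 ectodermal peaks (25.8%, 21.0% to 31.4%). Scaffold102974 had 57 of 311 (18.3%) and Scaffold12518 had 56 of 333 (16.8%). Scaffold5925 followed with 52 of 237 neuralized peaks (21.9%, 17.1% to 27.6%) and of 167 ectodermal peaks (31.1%, 24.6% to 38.5%), and Scaffold52573 with 45 of 211 (21.3%). In neuralized caps the intervals of 4 of these 5 scaffolds include the 19.0% of the whole list, and that of Scaffold39723 lies just above it. In ectodermal caps the interval of Scaffold5925 lies above the 21.3% of the whole list, and those of the other 4 include it. The extremes among the 561 scaffolds were Scaffold134022, with 10 shared of 16 neuralized peaks (62.5%, 38.6% to 81.5%), and 4 scaffolds with none, among them Scaffold18239 with 0 of 13 (up to 22.8%).

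**Figure D5:**
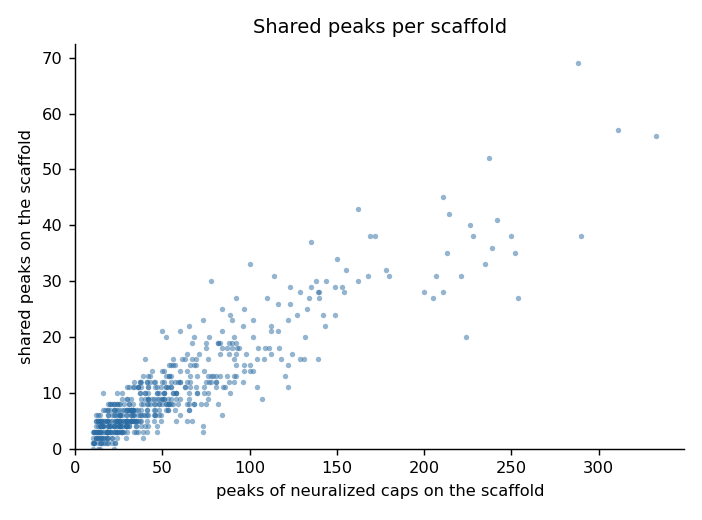
Shared peaks (y axis) against all neuralized-cap peaks (x axis) on each of the 561 scaffolds that peaks reach to 1 Mb or more and that hold at least 10 peaks of each list. Each point is a scaffold, and the highest holds 69 shared of 288 peaks.

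Scaffolds with many peaks per Mb did not hold more of the shared peaks than of the others. Scaffolds with more than 18.0 neuralized peaks per Mb reached held 49.8% of shared peaks (3732 of 7497) and 49.8% of unshared ones (15913 of 31967). Scaffolds of any reach were included, so a very short one with 1 peak could exceed this cut. Among scaffolds that peaks reached to 1 Mb or more, the shares were 48.9% of shared and 49.9% of unshared peaks. Scaffolds were also classed by their number of peaks of the same list, which is also the base of the shared fraction. The shared fraction of neuralized peaks was 19.5% (17.3% to 21.8%) with 1 peak, 22.6% (20.9% to 24.4%) with 2 to 9 and 20.1% with 10 to 49. It was 18.8% (18.1% to 19.6%) with 50 to 99 peaks and 17.4% (16.8% to 18.1%) with 100 or more. In the ectodermal list the shares of the same classes were 18.8% (16.7% to 21.1%), 21.0%, 21.8%, 21.1% (20.3% to 21.9%) and 21.1% (20.3% to 21.9%). On scaffolds where peaks reached 5000000 bp or more, 17.6% of neuralized (2650 of 15032) and 21.0% of ectodermal peaks (2650 of 12600) were shared. On those reaching 100000 to 1000000 bp the shares were 21.9% (1041 of 4746) and 21.8% (1041 of 4778). Partners lie on the same scaffold and pairing was nearly 1 to 1, so the rule itself makes the shared counts of the lists equal. The shares therefore differ between the lists through the totals alone. Median positions of neuralized peaks in file order were 50.2% and 48.9% of the list on these 2 kinds of scaffold.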

How the data were processed

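Chromatin was precipitated with an anti-FLAG antibody from both kinds of cap, and libraries were grouped by their titles. The submitters' processing notes list Bowtie, Bowtie2, HOMER and edgeR but no version of any. The aligner used for ChIP and the genome build are not given in the sources used here. Peaks were called with HOMER findPeaks in factor style, per the file headers, from 1 ChIP library against pooled inputs. Per the file headers, a peak needed 4 times the tags of the input and of the surrounding 10000 bp, each with a Poisson p-value of 0.0001, at a false discovery rate (FDR) of 0.001. The deposited lists have 6 columns, and the deposited score is 1 in every line.

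Overlaps, distances, chains and Wilson intervals were computed with Python 3.11.15, pandas 2.3.3 and scipy 1.17.1, and the overlap code was tested on simulated data and against bedtools 2.31.1. A scaffold's reach is the highest peak end on it in either list. Single peaks on a scaffold have no neighbour and count as not within any distance. Regions are not replicates, so no p-value was computed. Regions to name were taken by rule: the first 10 shared lines, the 5 scaffolds with most shared peaks, the largest chains and peaks at the overlap limit; the extremes of the shared fraction per scaffold were chosen after values were seen. The members and measures were chosen with earlier results of these data known. RNA values and sequences were not used here.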

Additional observations from a re-analysis of the deposited data

How the results depend on the processing

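The shared fraction depended on what counted as overlap. For neuralized and ectodermal peaks it was 14.8% and 16.6% with an overlap of at least 50% of the shorter peak. It was 10.8% and 12.04% with centres within 50 bp, and 26.2% and 29.4% with peaks extended by 500 bp on each side. With both lists cut to their first 50% before pairing, it was 19.6% and 21.9%. That cut also removed partners standing later in the other list. These values are thus not the fraction of the first 50% that was shared in the full lists. The median position of shared minus unshared peaks (-25.51 and -17.23 percentage points of the list) stayed negative under every alternative tried: -27.26 and -19.67 with centres within 50 bp, and -18.95 for the ectodermal list with 50% overlap. Clustered shares (shared, then unshared peaks) were 19.9% and 19.8% in neuralized and 19.9% and 19.4% in ectodermal caps within 2 kb, and 81.6% and 83.3%, and 81.0% and 81.2%, within 50 kb. Within 10 kb they were 37.3% and 39.995%, and 34.7% and 37.02%, in the first 50% of each list, and 53.4% and 55.6%, and 52.7% and 53.6%, on scaffolds with at least 10 peaks of each list. Median distances to the nearest peak in the first 50% of each list, which holds fewer peaks, were 19967 and 15531 bp in neuralized and 20416 and 17190 bp in ectodermal caps. For unshared peaks they were 7599 and 8504 bp on scaffolds with at least 10 peaks of each list. The 19 other alternative values, the shares on dense scaffolds among them, stayed within the 95% counting interval of the value reported. No paired analysis was possible because each condition had 1 ChIP library, and the lists carry no replicate numbers. With 1 library for each condition, a peak missing from 1 list cannot be told apart from a peak just below that list's threshold.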
